A study of Mus musculus with 6 samples.

Results

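The 10 genes described here mark macrophages or serve the uptake of dying cells, a process called efferocytosis. They were Adgre1, Ptprc, Mpeg1, Lyz2, Ly6c2, Mertk, Axl, Gas6, Folr2 and Lyve1, taken by symbol from the 22377 genes with counts, and all 10 were among the 13884 genes that passed the filter on low counts. RNA was sequenced in 6 libraries, 3 labelled wt and 3 labelled ko. By the methods of the study, the wt mice were Npm1+/+ and the ko mice Npm1+/-, young adults of both sexes, bearing Lewis lung carcinoma (LLC) cells injected under the skin of the groin a fortnight earlier. LLC is a mouse lung carcinoma line, and the injected cells were the same in both groups. The mutation was in the whole animal and removed a single allele of Npm1, which encodes the nucleolar chaperone nucleophosmin, so a difference need not arise within macrophages. The labels call the ko group a knockdown and name no gene. They give bulk tumor tissue and a small RNA library as the material, whereas the methods give tumor-associated macrophages (TAMs) sorted on CD45, CD11b and F4/80 and a low-input cDNA kit. The number of mice behind each library was not given, and the number that the study states for a heatmap of these data is below the number of libraries per group, so the p-values measure the spread between libraries.

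Macrophages in a tumor arise mostly from blood monocytes, which carry the surface protein Ly6C and lose it as they mature. Mature cells carry the adhesion receptor F4/80 (Adgre1) besides CD45 (Ptprc), the tyrosine phosphatase of all nucleated blood cells, and they store lysozyme (Lyz2) and the pore-forming protein perforin-2 (Mpeg1) against engulfed microbes. Dying cells expose phosphatidylserine, which the bridging protein Gas6 ties to the receptor kinases Tyro3, Axl and Mertk, so that the corpse is engulfed and inflammatory signalling is dampened. Folr2, a folate receptor, and Lyve1, a hyaluronan receptor, mark macrophages that reside in tissues for long periods, and Lyve1 also marks lymphatic endothelium. Adgre1, Ptprc and Itgam encode the proteins of the sort gate, so the presence of their transcripts repeats the gate.

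In these libraries 9 of the 10 genes had lower estimates in the libraries labelled ko (8 when libraries were scaled to their totals) and Axl had a higher one. The edgeR quasi-likelihood test with Benjamini-Hochberg adjustment called 0 of the 10, beside 0.0% of all genes tested, and 3 had an unadjusted p below 0.05. Mpeg1 showed the largest difference, with a mean of 1741 ± 267 CPM (TMM-scaled counts relative to library size, SD, n = 3) in wt and 853 ± 232 in the libraries labelled ko (n = 3). DESeq2 on the same 6 libraries called Mpeg1 lower (log2 fold change -1.05, adjusted p = 0.0310) and none of the other 9. Of all genes with an adjusted p, DESeq2 called 0.168% lower and 0.0949% higher.

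Total counts ranged from 36550775 to 38147320 per library, so that 3 counts, the most that a count of 0 allows, came to between 0.0716 and 0.0846 CPM. Such floors cover counting error only. The targeted gene did not separate the groups in the direction of the label. Npm1 stood at 142, 380 and 381 CPM in wt replicates 1 to 3 and at 441, 499 and 343 CPM in the libraries labelled ko, a log2 fold change of 0.51 ± 0.36 (SE, adjusted p = 0.436, edgeR), or 0.16 without wt replicate 1. Since the gene was not lower there, ko is used below only as a label. Macrophage transcripts were present: Csf1r, the receptor for the macrophage growth factor, ranged from 547 to 1612 CPM, Cd68 from 349 to 669, Fcgr1 from 127 to 277 and Itgam from 1493 to 2975. Their presence alone does not tell sorted macrophages from bulk tumor tissue. The wt replicate 1 stood apart on the first principal component of log2 CPM (-108.5, against -4.54 to 52.0 in the other 5 libraries), a component that held 68% of the variance. Values without it are given beside the fold changes and list medians that it moved by over 1.5 times. Markers of other cells were present at low levels and differed between libraries, and their values stand beside the genes they moved with.

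Sequences are shown here for 2 reasons: the control regions of the 2 genes with the smallest p, Mpeg1 and Ly6c2, and of the single gene with a higher estimate, Axl, and the near-identical copies that limit 2 of the values. Promoters came from RefSeq on GRCm38.p6, which held 11 windows for 8 of the 10 genes, with none for Adgre1 or Lyve1. Each line gives the 200 bases before the annotated start, 5′ to 3′ on the strand of the gene, for Mpeg1 (chr19:12460570-12460769, plus strand), Ly6c2 (chr15:75111972-75112171, minus strand) and Axl (chr7:25788734-25788933, minus strand). Capitals mark the core GAGGAA of the myeloid factor PU.1 on either strand.
Mpeg1: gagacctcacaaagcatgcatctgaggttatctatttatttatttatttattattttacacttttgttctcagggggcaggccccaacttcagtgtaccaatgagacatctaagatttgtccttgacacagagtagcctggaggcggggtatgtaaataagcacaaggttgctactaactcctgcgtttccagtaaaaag
Ly6c2: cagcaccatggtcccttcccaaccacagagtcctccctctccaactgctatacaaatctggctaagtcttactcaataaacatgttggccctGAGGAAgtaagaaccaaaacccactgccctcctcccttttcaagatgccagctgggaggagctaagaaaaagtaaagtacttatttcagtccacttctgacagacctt
Axl: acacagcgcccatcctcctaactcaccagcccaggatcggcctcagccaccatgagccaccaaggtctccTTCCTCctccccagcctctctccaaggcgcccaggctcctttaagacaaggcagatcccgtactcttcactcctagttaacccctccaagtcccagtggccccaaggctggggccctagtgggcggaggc

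The core lay 108 to 103 bases before the start of Ly6c2, where it was part of the longer GAGGAAGT, and, on the opposite strand, 130 to 125 bases before the start of Axl. In windows of 250 bases it was also found in Ptprc, so 3 of the 8 genes with a window held GAGGAA, a word present in 23.3% of all 32851 such windows. GAGGAAGT, which contains the core, was in 2.44% of all windows and in Ly6c2 alone among the 8. An AP-1 word, TGANTCA, lay 74 to 68 bases before the second start of Folr2 and in 6.75% of all windows. The STAT word TTCNNNGAA (7.02% of all windows), the C/EBP word TTGCNNAA (9.56%), the interferon-stimulated response element (2.98%), the NF-kB word GGGANNNCC (15.8%) and the E-box CACGTG (6.02%) were searched on both strands and matched in 0 of the 8. A match describes letters, not binding.

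Ly6c2 and Lyz2 each have a near-identical neighbor, so that reads could be split between copies by the authors' counting, which is not described in the sources used here. Ly6c2 (chromosome 15, 75108158 to 75111970, GRCm38) lay 59327 bases from Ly6c1, and Lyz2 (chromosome 10, 117277331 to 117282321) 5475 bases from Lyz1. The first 120 coding bases, from GENCODE M21 transcripts, follow, and capitals mark the bases that differ within a pair (6 for the Ly6c genes and 11 for the lysozymes).
Ly6c2: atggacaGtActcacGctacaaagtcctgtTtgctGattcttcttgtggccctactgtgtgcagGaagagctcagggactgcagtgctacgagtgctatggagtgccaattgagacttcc
Ly6c1: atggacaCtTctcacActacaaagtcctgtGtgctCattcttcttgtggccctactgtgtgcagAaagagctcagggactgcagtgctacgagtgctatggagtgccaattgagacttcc
Lyz2: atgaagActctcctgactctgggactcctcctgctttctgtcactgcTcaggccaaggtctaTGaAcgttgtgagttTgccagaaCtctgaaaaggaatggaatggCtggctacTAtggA
Lyz1: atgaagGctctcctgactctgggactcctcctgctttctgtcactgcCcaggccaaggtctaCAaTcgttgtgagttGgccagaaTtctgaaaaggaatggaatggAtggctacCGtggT

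Over the whole coding sequence the Ly6c genes differed at 9 of 396 bases (97.7% identity) and the lysozymes at 22 of 447 (95.1%). Of all 100-base windows of the transcript, 15.8% for Ly6c2 and 1.97% for Lyz2 were found exactly in the copy, so the value of Ly6c2 is the less certain. In the libraries the copies did not run in parallel. Ly6c1, an endothelial and T cell form, stood at 1.32, 13.7 and 8.50 CPM in wt and 20.9, 17.7 and 11.8 CPM in the libraries labelled ko (log2 fold change 1.10 ± 0.68, adjusted p = 0.394, or 0.59 without wt replicate 1). Lyz1, the lysozyme of Paneth cells, stood at 50.02, 38.1 and 57.4 CPM in wt and 39.7, 33.7 and 51.7 CPM in the libraries labelled ko (-0.22 ± 0.21, adjusted p = 0.552).

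Per length, the 10 genes covered a wide range. By FPKM (fragments scaled for gene length and library total) averaged over the 6 libraries, Lyz2 led at 8802 (range 6145 to 12480) and was the highest of all 22377 genes. Ly6c2 (298), Mpeg1 (292) and Ptprc (183) followed, and the ranges of neighbors within this trio overlapped. Adgre1 came next at 60.9, then Axl at 19.4, Folr2 at 7.87 and Gas6 at 2.43, each with a range that did not overlap that of its neighbors. Mertk (1.04) and Lyve1 (0.567) closed the order with overlapping ranges, near the middle of all genes (percentiles 54.8 and 50.2). Axl transcript thus stood at 11.95 to 31.2 times the level of Mertk within each library. The resident-like markers rested on few counts for Lyve1, with 38 to 84 per library, against 234 to 654 for Folr2.

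**Figure D1:**
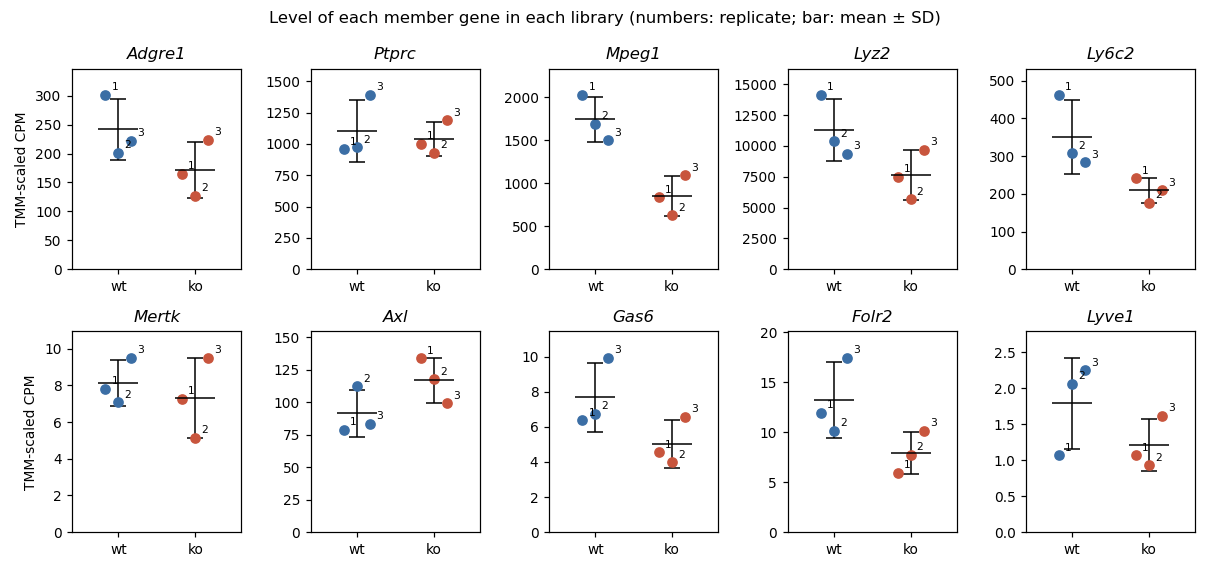
Level of each of the 10 genes (y axis, TMM-scaled CPM from 0) in the 3 wt libraries (blue) and the 3 libraries labelled ko (red), with the replicate number beside each point and a bar for the mean ± SD. Mpeg1 and Ly6c2 show all 3 red points below the blue ones, Folr2 shows its highest red point level with its lowest blue one at 10.2 CPM, and the other 7 genes overlap.

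Among the surface markers of the gate, Adgre1 measured 302, 201 and 222 CPM in wt replicates 1 to 3 and 165, 127 and 224 CPM in the libraries labelled ko. Replicates 1 and 2 labelled ko lay below every wt library, whereas replicate 3 lay between wt replicates 1 and 3. The log2 fold change was -0.49 ± 0.24 (adjusted p = 0.338), or -0.30 without wt replicate 1. Ptprc measured 957, 972 and 1393 CPM in wt and 1001, 928 and 1189 CPM in the libraries labelled ko, and the groups covered nearly the same range (-0.09 ± 0.19, adjusted p = 0.795). Its sign was not stable, and it turned to 0.04 when libraries were scaled to their totals and to 0.09 without wt replicate 3, and it was -0.19 without wt replicate 1. An annotated transcript on the same strand, A130071D04Rik, lies within the span of Ptprc. In bulk RNA, fewer cells of a type and less RNA per cell cannot be told apart, here and below.

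The genes that act with CD45 had mostly lower estimates. Of 14 CD45 signalling genes, 11 had lower and 3 higher estimates in the libraries labelled ko (median log2 fold change -0.40, against 0.02 over all genes tested), and the groups did not overlap in 6 lower and 1 higher genes. Over all genes tested, 12.6% lay lower and 13.3% higher without overlap, the shares to set beside each such count below. Ptpn6, the phosphatase SHP-1, had a log2 fold change of -0.94 ± 0.29, Ptpn22, a phosphatase prominent in lymphocytes, 0.88 ± 0.29, and Src, a kinase, 0.77 ± 0.43 (0.42 without wt replicate 1). The T cell list, whose cells also carry CD45, had higher estimates for 9 of 9 tested genes (median 1.33), with a summed level of 33.6 to 126 CPM in wt and 100 to 280 CPM in the libraries labelled ko. The NK cell list was higher in 10 of 10 (median 1.05), at 99.9 to 193 CPM in wt and 165 to 459 CPM in the libraries labelled ko. Without the library labelled ko replicate 2 these medians were 0.72 for T cells and 0.27 for NK cells. The sort in the methods would remove most such cells. The part of these cells in the Ptprc level was not tested. Of 7 adhesion receptors related to Adgre1, 4 were lower and 3 higher (median -0.05), with Adgrg6 at 0.53 ± 0.23, Adgre5 at -0.50 ± 0.23, Adgrg3 at -0.43 ± 0.24 and Adgre4 at -0.43 ± 0.34. Without wt replicate 1 Adgrg6 was at 0.33, Adgre5 at -0.22 and Adgre4 at -0.10, and the median of the 7 was -0.10, or -0.195 without the library labelled ko replicate 2. None of the genes of these 4 lists was called by edgeR (adjusted p of those named 0.328 to 0.476).

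Mpeg1, which encodes a pore-forming protein that perforates engulfed bacteria, measured 2029, 1694 and 1501 CPM in wt and 835, 630 and 1093 CPM in the libraries labelled ko. Every library labelled ko lay below every wt library, and the gap between the nearest ones, 1501 and 1093, was larger than the SD of either group. The log2 fold change was -1.03 ± 0.23, a fold of 0.490 (unadjusted p = 0.00227, adjusted p = 0.328, edgeR), and an exact two-sided permutation test gave p = 0.1, the smallest that 3 against 3 libraries allow. By p, Mpeg1 was number 22 among all genes with lower estimates. Without wt replicate 1 the log2 fold change was -0.91, and over the 6 ways to leave out a library it ran from -1.26 to -0.86. When both wt replicate 1 and the library labelled ko replicate 3 were left out, edgeR gave -1.13 (adjusted p = 0.101) and DESeq2 -1.17 (adjusted p = 6.8e-07). That choice removed the labelled ko library nearest to wt in Mpeg1, and also the highest wt library. Mpeg1 lies at chromosome 19, 12460779 to 12465283, with no overlapping annotated gene.

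Lyz2 measured 14144, 10371 and 9354 CPM in wt and 7499, 5667 and 9698 CPM in the libraries labelled ko. It held between 0.650% and 1.32% of all counts. The groups overlapped through replicate 3 of each, and the log2 fold change was -0.57 ± 0.26 (adjusted p = 0.331), or -0.37 without wt replicate 1. Within a library, Mpeg1 and Lyz2 did not keep 1 ratio. The FPKM of Mpeg1 was 0.0349, 0.0397 and 0.0390 of that of Lyz2 in wt and 0.0271, 0.0270 and 0.0274 in the libraries labelled ko, with no overlap. A ratio to Lyz2 that was lower in every library labelled ko was seen in 0.547% of genes. The ratio of Lyz2 to Adgre1 did overlap, at 149, 164 and 133 in wt and 144, 141 and 137 in the libraries labelled ko.

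The 11 tested antimicrobial genes gave 10 lower and 1 higher estimates (median -0.33). The groups did not overlap in 1, which lay lower, beside 12.6% of all genes tested, so this list did not stand out. Nos2, the inducible nitric oxide synthase, measured 55.4, 80.7 and 87.0 CPM in wt and 42.9, 27.1 and 58.0 CPM in the libraries labelled ko (-0.80 ± 0.29, adjusted p = 0.328). Gsdmd, a pore-former of cell death, had -0.40 ± 0.22 (adjusted p = 0.362, or -0.20 without wt replicate 1), and Prf1, the perforin of cytotoxic lymphocytes, 0.65 ± 0.39 (adjusted p = 0.382). Neutrophils also hold much lysozyme. Their list of 11 tested genes was lower in 10, with a summed level of 2006 to 2246 CPM in wt and 904 to 1747 CPM in the libraries labelled ko, and it included Cxcr2 (-0.97 ± 0.32), Csf3r (-0.83 ± 0.25) and Mmp8 (-0.53 ± 0.18). Ly6g, the defining neutrophil marker, was at 0.573 to 2.11 CPM. The part of neutrophils in the Lyz2 level was not tested.

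Ly6c2, the Ly6C antigen of inflammatory monocytes, measured 462, 307 and 283 CPM in wt and 241, 177 and 209 CPM in the libraries labelled ko. The groups did not overlap, and the log2 fold change was -0.75 ± 0.22 (unadjusted p = 0.00920, adjusted p = 0.328). The wt replicate 1 was the highest of the 6, and without it the log2 fold change was -0.50, with the groups still apart. Of 18 monocyte genes, 17 had lower estimates (median -0.61) and 10 had an unadjusted p below 0.05. The count at that p was 6 without wt replicate 1, and 2, 4 and 12 without ko replicate 1, 2 or 3. Over all 13884 genes tested, 1154 were lower at that p, and 765 without wt replicate 1. Leaving out ko replicate 1, 2 or 3 gave 382, 412 and 1402. Of the 18, 8 did not overlap and lay lower, beside 12.6% of all genes. Chil3, a chitinase-like protein of monocytes, had -0.83 ± 0.33 (-0.52 without wt replicate 1), Hp, haptoglobin, -0.84 ± 0.30, and the 1 higher gene was Ly6c1. The summed monocyte level was 45295 to 51550 CPM in wt and 23931 to 42682 CPM in the libraries labelled ko. In the Ly6 family, 4 of 7 tested genes were lower and 3 higher (median -0.32), among them Ly6i at -0.56 ± 0.26 (-0.29 without wt replicate 1), Ly6e at -0.47 ± 0.18 and Ly6a at -0.32 ± 0.21. None of these genes was called by edgeR.

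**Figure D2:**
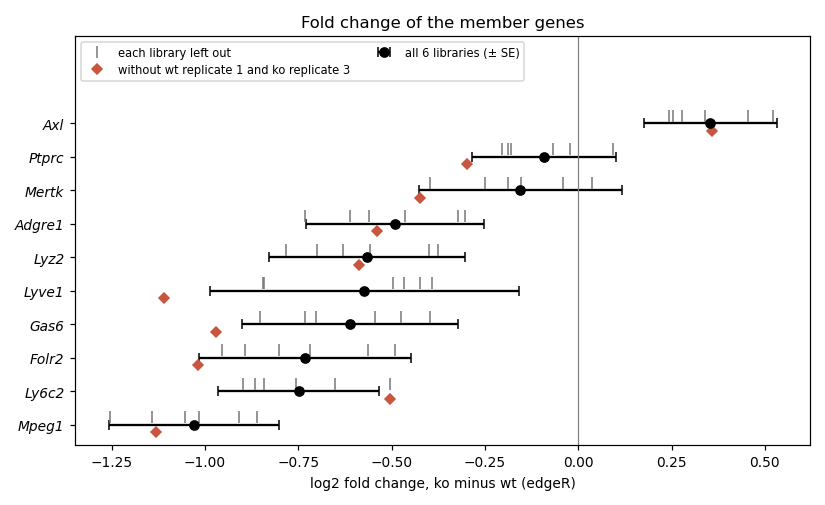
Log2 fold change of the 10 genes (x axis, ko minus wt, edgeR), with black points for all 6 libraries and bars for ± SE, gray ticks for each library left out in turn, and red diamonds for the fit without wt replicate 1 and ko replicate 3. All ticks of Mpeg1 lie between -1.26 and -0.86, all of Axl between 0.24 and 0.52, and those of Ptprc and Mertk lie on both sides of 0.

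Among the efferocytosis receptors, Axl had a higher estimate and Mertk one near 0. Axl, the receptor kinase that inflammatory macrophages use, measured 78.8, 112 and 83.7 CPM in wt and 134, 118 and 99.2 CPM in the libraries labelled ko. All but 1 pair of libraries followed the labels, since wt replicate 2 lay above the library labelled ko replicate 3. The log2 fold change was 0.35 ± 0.18 (unadjusted p = 0.0832, adjusted p = 0.344), or 0.25 without wt replicate 1. Mertk, the receptor kinase of resting and anti-inflammatory macrophages, measured 7.82, 7.07 and 9.52 CPM in wt and 7.27, 5.13 and 9.52 CPM in the libraries labelled ko. The groups lay on top of each other (-0.16 ± 0.27, adjusted p = 0.749), and without the library labelled ko replicate 2 the sign turned (0.04). Within libraries, the FPKM ratio of Axl to Mertk was 13.7, 21.6 and 11.95 in wt and 25.1, 31.2 and 14.2 in the libraries labelled ko, an overlap (exact two-sided permutation p = 0.2). An antisense gene, Gm14011, and a small nucleolar RNA overlap Mertk, and whether counting used strand is not known.

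Fibroblasts and carcinoma cells, which the sort in the methods would remove, can also express Axl, and some of their markers moved with it. The summed fibroblast list was 51.7, 628 and 387 CPM in wt and 900, 782 and 467 CPM in the libraries labelled ko, with 12 of 13 tested genes higher (median 1.14). Thy1, which T cells also carry, had a log2 fold change of 1.22 ± 0.56 and was highest at 69.7 CPM in the library labelled ko replicate 2. Col6a2 had 1.14 ± 0.81 and Col6a1 1.03 ± 0.79. Without wt replicate 1, the lowest library in these markers, the median was 0.60, Col6a2 was at 0.60 and Col6a1 at 0.49. Col3a1, a defining collagen, measured 19.0 to 426 CPM in wt and 308 to 604 CPM in the libraries labelled ko, a log2 fold change of 1.01 ± 0.85 or 0.46 without wt replicate 1, while Col1a1 stayed between 0.561 and 5.52 CPM. The keratin Krt8 measured 9.90, 117 and 59.1 CPM in wt and 171, 165 and 105.5 CPM in the libraries labelled ko, a log2 fold change of 1.25 ± 0.71 or 0.74 without wt replicate 1, although Epcam stayed at or below 0.716 CPM. The epithelial or carcinoma list summed to 36.1 to 138 CPM in wt and 129 to 192 CPM in the libraries labelled ko (2 of 4 tested genes higher, median 0.17, or 0.07 without wt replicate 1, with Cdh1 at -0.41 ± 0.30, or -0.16 without it). The 6 libraries stood in the same order for Axl, for the fibroblast list, for the epithelial list and for Krt8. In the library labelled ko replicate 1, Krt8 gave 171 of the 192 CPM of the epithelial list, so these 2 were not separate observations. Col3a1 gave 604 of the 900 CPM of the fibroblast list there. The share of all genes with this order was not measured. The part of these cells in the Axl level was not tested.

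**Figure D3:**
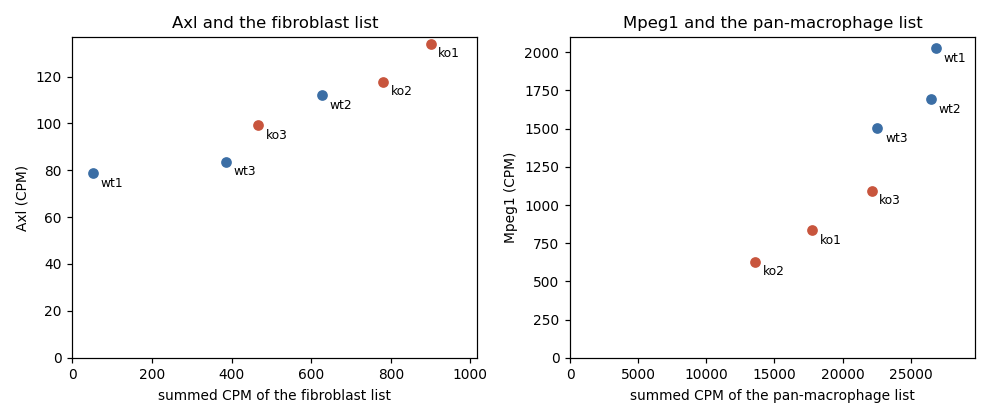
Each point is 1 library (blue wt, red ko). On the left, Axl (y axis, CPM) is set against the summed CPM of the fibroblast list, and the 6 libraries run in 1 order from wt1 at 51.7 and 78.8 to ko1 at 900 and 134. On the right, Mpeg1 (y axis, CPM) is set against the summed CPM of the pan-macrophage list, and the order again is shared, from ko2 at 13605 to wt1 at 26863.

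The ligand Gas6 measured 6.38, 6.74 and 9.94 CPM in wt and 4.55, 3.99 and 6.56 CPM in the libraries labelled ko. Only replicate 3 of the labelled ko group reached above a wt library, and the log2 fold change was -0.61 ± 0.29 (adjusted p = 0.334), or -0.73 without wt replicate 1, when the groups no longer overlapped. Tmem255b, on the opposite strand, overlaps the span of Gas6. The other ligand of the family, Pros1 (protein S), measured 42.2, 27.0 and 29.2 CPM in wt and 21.8, 14.7 and 23.9 CPM in the libraries labelled ko, with no overlap (-0.70 ± 0.24, adjusted p = 0.328). The third receptor, Tyro3, was low at 0.253, 2.34 and 1.02 CPM in wt and 4.02, 5.54 and 2.24 CPM in the libraries labelled ko (1.71 ± 0.72, adjusted p = 0.328). In wt replicate 1 it rested on 9 counts. Over the 8 tested relatives and regulators of this family, 5 were lower and 3 higher (median -0.07, or -0.21 without wt replicate 1 and 0.01 without the library labelled ko replicate 2). Mfge8, a bridging protein for integrins, was higher in every library labelled ko at 43.9, 40.4 and 36.6 CPM, against 26.9, 33.6 and 27.5 CPM in wt (0.46 ± 0.14), and Socs1, an inhibitor that the receptors induce, had 0.53 ± 0.24.

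The wider machinery of corpse clearance was measured along its steps. Of 14 genes that sense find-me signals or restrain uptake, 11 were lower and 3 higher (median -0.29), with 7 lower and 1 higher that did not overlap. Cx3cr1, the receptor for the find-me chemokine CX3CL1, measured 75.5, 37.0 and 46.7 CPM in wt and 21.2, 16.0 and 26.7 CPM in the libraries labelled ko (-1.32 ± 0.30). P2ry6, the receptor for nucleotides that leak from dying cells, had -0.87 ± 0.18. DESeq2 called both (adjusted p = 0.0253 and 0.0439), whereas edgeR did not (adjusted p = 0.328 for each). S1pr1, a lipid receptor also high in lymphocytes, had 1.18 ± 0.48. Among 25 tested receptors and bridging molecules, 19 were lower and 6 higher (median -0.49, or -0.32 without the library labelled ko replicate 2), and 11 lower and 2 higher did not overlap. The scavenger receptor Lrp1 had -0.77 ± 0.19, Cd300a, an inhibitory receptor for exposed lipids, -0.90 ± 0.32 (-0.52 without wt replicate 1), and Pros1 the value given above.

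Engulfment genes, which move actin around the corpse, were lower in 18 and higher in 4 of 22 (median -0.25), with Vav1 at -0.74 ± 0.19, Abca7 at -0.72 ± 0.23 (-0.45 without wt replicate 1) and the focal adhesion kinase Ptk2 at 0.96 ± 0.52 (0.52 without it). Genes of phagosome maturation and digestion were lower in 29 and higher in 3 of 32 (median -0.37), and the groups did not overlap in 16 lower and 1 higher. The lysosomal nucleoside transporter Slc29a3 had -0.69 ± 0.14, the cholesterol exporter Abcg1 -0.72 ± 0.19 and the lactate transporter Slc16a1 0.69 ± 0.31 (0.41 without wt replicate 1). edgeR called none of the genes of these lists. Each list had a lower median than all genes tested, and the lists share genes with one another and with the pan-macrophage list, among them Itgam, Cybb, Ctsb and Sirpa.

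**Figure D4:**
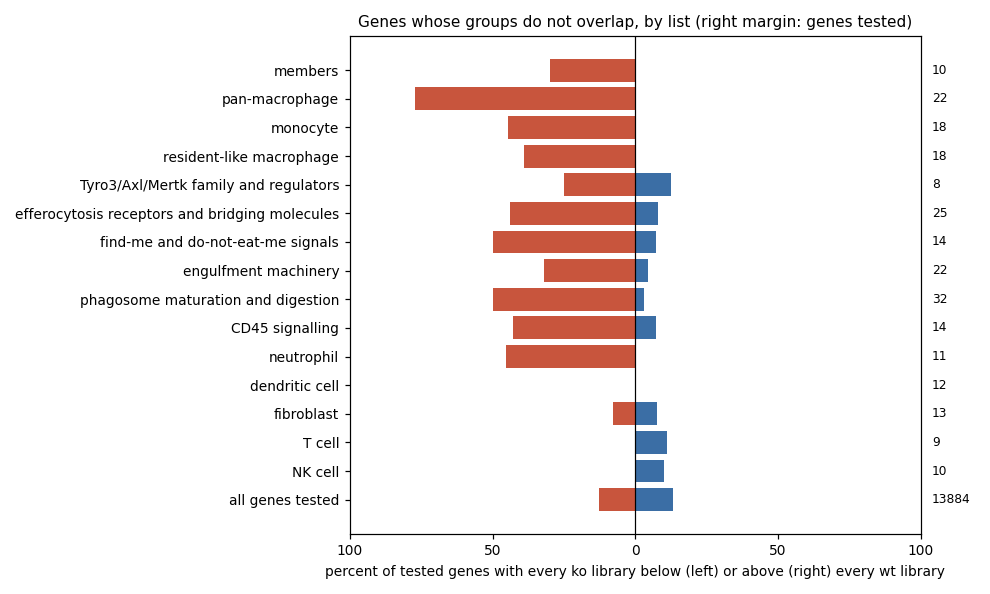
Percent of the tested genes of each list for which every library labelled ko lay below (red, left) or above (blue, right) every wt library, with the number of genes tested at the right margin. The pan-macrophage list reaches furthest left, with 17 of 22 genes, the 10 genes described here show 3 to the left, and all genes tested show 12.6% to the left and 13.3% to the right.

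Among the markers of resident-like macrophages, Folr2 measured 11.95, 10.2 and 17.5 CPM in wt and 5.95, 7.73 and 10.2 CPM in the libraries labelled ko. The lowest wt library and the highest labelled ko differed by less than the last digit shown, so the groups touched rather than stood apart. The log2 fold change was -0.73 ± 0.28 (unadjusted p = 0.0346, adjusted p = 0.328), or -0.80 without wt replicate 1 and -0.49 without wt replicate 3. An antisense gene, Gm10602, and a pseudogene overlap Folr2, while Folr1, its neighbor at 1136 bases, had 0 counts in 5 libraries and 5 in ko replicate 2. Lyve1 measured 1.07, 2.06 and 2.25 CPM in wt and 1.07, 0.931 and 1.61 CPM in the libraries labelled ko, and its error was wide (-0.57 ± 0.41, adjusted p = 0.441). Without wt replicate 1, its estimate was -0.84. The defining lymphatic endothelial genes were at or near 0, with Prox1 at 0, 5 and 2 counts in wt and 0 in each library labelled ko, and Flt4 at 1 to 14 counts. The lymphatic list, led by Nrp2 (0.38 ± 0.25, or 0.13 without wt replicate 1) and Pdpn (-0.28 ± 0.20), which other cells also express, summed to 150 to 261 CPM in wt and 201 to 203 CPM in the libraries labelled ko.

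Of 18 tested resident-like genes among 22 listed, 17 were lower and 1 higher (median -0.48), 6 had an unadjusted p below 0.05 (1 without the library labelled ko replicate 2) and 7 did not overlap. Of all 13884 genes tested, 1154 were lower at that p, and 412 without that library. Stab1, a scavenger receptor, measured 233, 217 and 238 CPM in wt and 131, 143 and 184 CPM in the libraries labelled ko (-0.58 ± 0.15). The iron exporter Slc40a1 had -0.72 ± 0.23 and the selenium carrier Selenop -0.56 ± 0.23 (adjusted p = 0.328 for each of the 3). Among folate genes, the relation was the opposite of Folr2, with 10 of 14 higher and 4 lower (median 0.54, or 0.29 without wt replicate 1). Thymidylate synthase, Tyms, had 0.79 ± 0.27, and Mthfd1, a single-carbon enzyme, 0.65 ± 0.30 (0.38 without wt replicate 1). Among 9 tested hyaluronan genes, 7 were lower and 2 higher (median -0.37, or -0.12 without the library labelled ko replicate 2), with Tnfaip6 at -0.43 ± 0.21, Vcan at -0.37 ± 0.28 and Cd44, the main hyaluronan receptor of leukocytes, at -0.15 ± 0.18. Vcan was at -0.59 and Cd44 at -0.24 without wt replicate 1.

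Counted together, 3 of the 10 genes had an unadjusted p below 0.05, all lower (Mpeg1, Ly6c2 and Folr2), where 8.31% of all genes tested were lower at that p. The same 3 did not overlap between groups and lay lower, Folr2 by less than the last digit shown, beside 12.6% of all genes, and 0 lay higher, beside 13.3%. Without the library labelled ko replicate 3, 7 lay lower and 1 higher without overlap, beside 3227 lower and 3687 higher of all 13884 genes. Without ko replicate 1 only 2 lay lower, beside 2034 of all genes. The median log2 fold change of the 10 was -0.57. In the 22 pan-macrophage genes, chosen as general markers and holding none of the 10, all 22 estimates were lower (21 when libraries were scaled to their totals, median -0.54), 17 did not overlap and 15 had an unadjusted p below 0.05. The largest were Spi1, which encodes PU.1 (-0.75 ± 0.23), Csf1r (-0.74 ± 0.25) and Fcgr1 (-0.71 ± 0.20), with an adjusted p of 0.328 each. Without wt replicate 1 all 22 were lower and 17 did not overlap, and 9 had an unadjusted p below 0.05. That last count was 3 without the library labelled ko replicate 1, 5 without ko replicate 2 and 20 without ko replicate 3. All 6 libraries gave 1154 lower genes at that p among all 13884, and leaving out wt replicate 1 gave 765. Leaving out ko replicate 1, 2 or 3 gave 382, 412 and 1402. The summed pan-macrophage level was 26863, 26455 and 22556 CPM in wt and 17742, 13605 and 22128 CPM in the libraries labelled ko. This was the same order of libraries as for Mpeg1, and the phagosome maturation, CD45 signalling and Ly6 family lists shared it. How many of all genes had this order was not measured.

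Fits were also run on 4 libraries, all but wt replicate 1 and ko replicate 3. On these, DESeq2 called 6 of the 10 lower, where it called 6.21% of genes lower and 4.42% higher. These were Mpeg1, Lyz2 (-0.63, adjusted p = 0.0127), Folr2 (-1.05, adjusted p = 0.0122), Adgre1 (-0.57, adjusted p = 0.0235), Gas6 (-1.005, adjusted p = 0.0238) and Ly6c2 (-0.54, adjusted p = 0.0426). Axl, Mertk, Ptprc and Lyve1 were not called (adjusted p = 0.309, 0.367, 0.260 and 0.150). edgeR on these 4 libraries called 0. An unadjusted p below 0.05 was seen in 7, all lower, beside 1472 lower and 1743 higher of 13847 genes. The libraries left out were the lowest wt library in fibroblast markers and the labelled ko library with the highest pan-macrophage level. With only ko replicate 3 left out, 8 of the 10 genes did not overlap, against 3 on all 6 libraries. The 6 calls rest on this choice of libraries and are no separate evidence of a difference.

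To see the 10 genes against other macrophage transcripts, levels were divided by the summed pan-macrophage list of the same library. In that sum Cd14 (25.4%), Itgam (11.3%) and Ctsb (10.4%) weighed most. The sum does not measure the number of macrophages, since RNA per cell enters it too. A log2 ratio near 0 therefore names no cause. Per 1000 CPM of that list, Mpeg1 measured 75.5, 64.0 and 66.6 CPM in wt and 47.1, 46.3 and 49.4 CPM in the libraries labelled ko, a log2 ratio of -0.53 with no overlap. Ratios that were lower in every library labelled ko were seen in 0.433% of genes. The list sum was itself lower in every library labelled ko, which keeps this share small. Mpeg1 had the largest fall of the 10 genes, so its lower ratio is no separate evidence. Axl measured 2.93, 4.24 and 3.71 in wt and 7.56, 8.66 and 4.49 in the libraries labelled ko, a log2 ratio of 0.89 with no overlap, but 37.9% of genes were higher on this scale. The other 8 overlapped, with log2 ratios of 0.02 for Adgre1, -0.05 for Lyz2, -0.20 for Ly6c2 and Folr2, -0.09 for Gas6, -0.01 for Lyve1, 0.34 for Mertk and 0.45 for Ptprc. Exact two-sided permutation p was 0.1 for Mpeg1 and for Axl, the smallest possible.

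**Figure D5:**
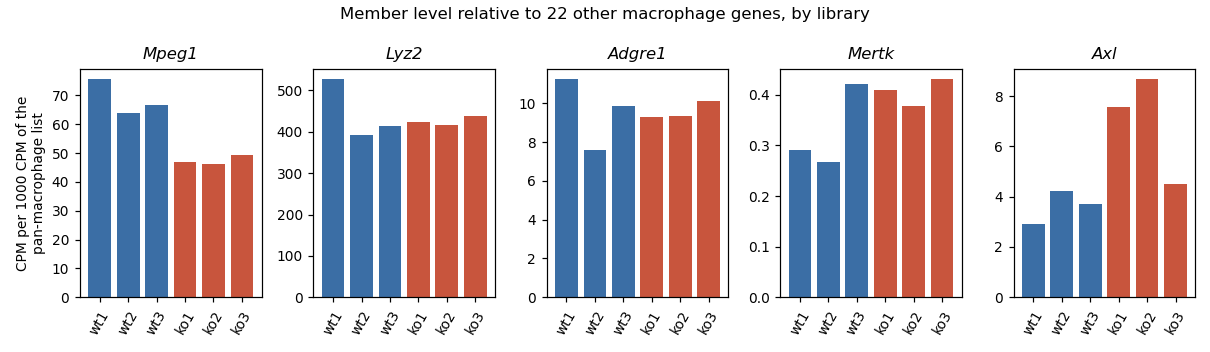
Level of 5 genes per 1000 CPM of the summed pan-macrophage list (y axes from 0), 1 bar per library, blue for wt and red for the libraries labelled ko. Mpeg1 runs from 64.0 to 75.5 in wt and from 46.3 to 49.4 in the libraries labelled ko, Axl is higher in each red bar than in any blue one, and Lyz2, Adgre1 and Mertk overlap.

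Ratios to Adgre1 and Ptprc were also taken. The log2 fold change was -1.03 for Mpeg1, against -0.57 for Lyz2, -0.49 for Adgre1 and -0.09 for Ptprc. A lower ratio of Mpeg1 to each of these genes followed from those values, so its direction is no separate evidence. The FPKM of Mpeg1 relative to Adgre1 was 5.185, 6.50 and 5.203 in wt and 3.90, 3.82 and 3.77 in the libraries labelled ko. A ratio to Adgre1 that was lower without overlap was seen in 0.936% of genes. Relative to Ptprc, 3 of 9 genes were lower without overlap, beside 2.54% of all genes, and 6 overlapped. Mpeg1 stood at 2.86, 2.36 and 1.46 of Ptprc in wt and 1.13, 0.917 and 1.24 in the libraries labelled ko. Gas6 stood at 0.0151, 0.0157 and 0.0162 in wt and 0.0103, 0.00973 and 0.0125 in the libraries labelled ko. Folr2 stood at 0.0551, 0.0462 and 0.0554 in wt and 0.0263, 0.0368 and 0.0378 in the libraries labelled ko. The T and NK cell lists, whose cells carry CD45, had higher estimates in the libraries labelled ko, and their part in the Ptprc level was not tested.

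For the 3 genes with the widest range of log2 CPM over the 6 libraries, the genes with the most similar profile were found by the root mean square difference of log2 CPM, each gene centered on its own mean. Mpeg1 (range 1.69) was nearest to Slc43a2, an amino acid transporter (0.112), Vsir, the checkpoint protein VISTA (0.115), and H2-T24, a non-classical class I gene (0.121). Folr2 (range 1.55) was nearest to Maf, a transcription factor of resident macrophages (0.201), Snx30 (0.217) and Ms4a7 (0.220). Ly6c2 (range 1.39) was nearest to Tbc1d2 (0.0471), Cebpd, a myeloid C/EBP factor (0.0969), and Irf7, an interferon regulator (0.105). Vsir, for example, measured 563, 377 and 399 CPM in wt and 232, 168 and 307 CPM in the libraries labelled ko.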

How the data were processed

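Whole-number counts per gene and FPKM values for 6 libraries were deposited by the authors. The deposited counts were not normalized, and the deposited FPKM values scaled the same counts for gene length and library total only. The submitters' processing notes name the build mm10, and the aligner, counter and annotation are not given in the sources used here. Counts were tested with edgeR 4.0.16 in R 4.3.3 (filterByExpr, TMM, glmQLFit, glmQLFTest, Benjamini-Hochberg over 13884 genes, threshold 0.05, prior count 2 for log2 CPM), without pairing. Standard errors were obtained from the fold change and its F statistic. DESeq2 1.42.0 and limma 3.58.1 (log2 of FPKM plus 1 or 0.1) were alternatives, as were other scalings, low-count filters and libraries left out, with library-total scaling, list counts and ratios added after seeing the data. The edgeR script was tested on simulated counts.

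Named genes were the 10 genes, Npm1, relatives of the 10, the 3 genes per list with the largest absolute log2 fold change at a mean log2 CPM of at least 3, and the 3 nearest profiles of the 3 most variable genes. A gene that this rule names is not reported here. The genes and lists were chosen with earlier results of these data known. Total counts were 36550775 to 38147320 per library, and pairs of replicates differed beyond counting noise (chi-square per gene 33.6 to 151). Coordinates and transcripts were from GENCODE M21 on GRCm38, promoters from RefSeq.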

Additional observations from a re-analysis of the deposited data

How the results depend on the processing

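Over 17 alternatives, Mpeg1 kept its direction (log2 fold change -1.26 to -0.86), as did Ly6c2 (-0.90 to -0.50), Folr2 (-1.05 to -0.49), Lyz2 (-0.78 to -0.37), Adgre1 (-0.73 to -0.30), Gas6 (-1.005 to -0.33), Lyve1 (-1.15 to -0.15), Axl (0.24 to 0.52) and Npm1 (0.16 to 0.77). Ptprc reversed with limma on FPKM plus 1 (0.0721) or plus 0.1 (0.0726), with library-total scaling (0.0446) and without wt replicate 3, its leave-one-out values running from -0.2044 to 0.0927. Mertk reversed without the library labelled ko replicate 2, its leave-one-out values running from -0.3967 to 0.0380. Library-total scaling moved the median of all genes from 0.02 to 0.17. DESeq2 called 36 genes on 6 libraries and 1283 on 4, against 0 by edgeR (2112 at an unadjusted p below 0.05), and among the 10 genes 1 and 6. Of the 10 genes, 3 did not overlap, 2 to 8 when 1 library was left out, and 8 with edgeR scaling and 10 with DESeq2 scaling on 4 libraries, which have fewer values to overlap. Without overlap on 4 libraries, 3691 genes lay lower and 4322 higher of 13847 with edgeR scaling. With DESeq2 scaling 4117 lay lower and 3870 higher of 13884. With the replicate number as a block, edgeR called 0 genes and 0 of the 10 (1606 genes at an unadjusted p below 0.05). Replicate numbers did not pair the libraries (correlations of deviations -0.241, 0.060 and -0.337). With 3 libraries a group, Lyve1, at 38 to 84 counts, is the least precise of the 10.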

Other observations

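Lists of further cell types, several of which the sort in the methods would remove, were also measured. Dendritic cell genes were lower in 9 and higher in 3 of 12 (median log2 fold change -0.14), with summed levels of 445 to 787 CPM in wt and 462 to 607 CPM in the libraries labelled ko. Flt3, the receptor that dendritic cell precursors need, had -0.57 ± 0.29, the integrin Itgax -0.54 ± 0.29 and the transcription factor Irf8 -0.39 ± 0.19. Without wt replicate 1 these were -0.30, -0.17 and -0.20, and the median of the list -0.01. Blood endothelial genes were higher in 6 and lower in 3 of 9 (median 0.68, or 0.31 without wt replicate 1), at 53.1 to 70.1 CPM in wt and 61.2 to 66.9 CPM in the libraries labelled ko, and included Eng (0.46 ± 0.20) and Pecam1 (-0.32 ± 0.14). B cell genes were evenly divided, with 4 of 8 higher (median -0.09, or 0.28 without wt replicate 1 and -1.06 without the library labelled ko replicate 2), and their summed level varied within groups, from 9.53 to 57.3 CPM in wt and from 19.2 to 83.8 CPM in the libraries labelled ko. Of the T and NK cell lists given above, the cytotoxic genes Il2rb (1.35 ± 0.52), Gzmb (1.09 ± 0.46) and Gzma (0.95 ± 0.45) were highest in the library labelled ko replicate 2. So were the T cell genes Cd3g (1.52 ± 0.62), Cd4 (1.33 ± 0.55) and Cd8a (1.26 ± 0.78, or 0.76 without wt replicate 1). By TMM-scaled CPM, that library was also lowest in Adgre1, Ptprc, Mpeg1, Lyz2, Ly6c2, Mertk, Gas6 and Lyve1. By FPKM, wt replicate 1 was instead lowest in Ptprc (152, against 181 in ko replicate 2) and Lyve1 (0.382, against 0.409). None of these genes was called by edgeR.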
